A study of Mus musculus with 4 samples.

Results

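Of 3389 regions in the authors' deposited table of differing DNA methylation in mouse microglia, 795 (23.5%) lay in introns of protein-coding genes and had a lower methylation level in the first of the 2 groups compared. They were chosen by the sign of the deposited difference and by position. The midpoint lay inside a protein-coding gene, no base touched a protein-coding exon, and the midpoint was more than 1000 bp from every protein-coding transcript start. They made up 50.3% of the 1581 regions that were lower in the first group, covered 211389 bp in all, and fell in 593 host genes. For comparison, 958 intronic regions were higher in the first group by the same rule of position, and 349 regions lower in the first group were intergenic within 50000 bp of a gene.

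The series measured cytosine methylation by whole-genome bisulfite sequencing, in which unmethylated cytosines are read as T and methylated ones stay C. Untreated C57BL/6J mice, 3 months old, were either wild type (WT, 2 samples) or lacked interferon regulatory factor 8 (IRF8KO, 2 samples). Per the labels' protocols, 40000 sorted microglia gave each DNA preparation, and 50 ng was converted and amplified over 8 cycles of PCR for paired reads of 75 bp. The labels name no sex, litter, number of animals or batch, and do not say whether the knockout was limited to a cell type. The deposited tables compare a first with a second group and do not say which of them is WT, so no genotype is attached to a direction here. The deposited tables hold no value per sample, so no replicate's own level can be seen, and read depth is unknown. What they hold of spread are the authors' standard errors and dispersion estimates per site. Their columns with a level per numbered group could not be matched to a genotype and were not used, which leaves the differences. Methylation alone also gives no check of the microglia label against marker expression.

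Microglia are the resident macrophages of the brain. Their enhancers, the distal elements that bind transcription factors and raise the transcription of a gene, often lie in introns, and enhancers in use usually lose CpG methylation where factors are bound. IRF8 binds DNA weakly alone. It binds together with the ETS factor PU.1 at composite elements in which the ETS core GGAA is followed after 2 free bases by the IRF core GAAA. The IRF core repeated makes the interferon-stimulated response element.

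The composite element, GGAANNGAAA, was searched on both strands of the reference sequence (GRCm38, from RefSeq), and 145 of the 795 regions (18.2%) held it. The 8 sequences here are shown because they carry that feature: they surround the element in 8 of the 10 such regions with the largest area scores, the authors' sum of site statistics over a region. The other 2 lie in Tcof1. Each run has 100 bases, is written 5′ to 3′ on the strand of the element, and has the element in capitals.
Got1: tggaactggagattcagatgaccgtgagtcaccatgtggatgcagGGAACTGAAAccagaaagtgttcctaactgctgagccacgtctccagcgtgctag
Pik3cb: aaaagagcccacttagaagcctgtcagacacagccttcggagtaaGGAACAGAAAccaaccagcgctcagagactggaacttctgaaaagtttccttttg
Nrip1: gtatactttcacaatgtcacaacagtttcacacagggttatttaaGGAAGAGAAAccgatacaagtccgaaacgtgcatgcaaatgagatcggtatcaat
Clip1: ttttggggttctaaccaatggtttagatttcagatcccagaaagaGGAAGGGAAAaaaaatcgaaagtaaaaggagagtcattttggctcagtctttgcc
Cmklr1: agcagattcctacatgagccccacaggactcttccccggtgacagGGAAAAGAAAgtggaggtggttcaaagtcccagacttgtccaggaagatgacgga
Mtss1: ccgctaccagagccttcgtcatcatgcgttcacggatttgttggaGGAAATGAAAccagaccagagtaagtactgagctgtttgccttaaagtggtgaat
Sipa1l1: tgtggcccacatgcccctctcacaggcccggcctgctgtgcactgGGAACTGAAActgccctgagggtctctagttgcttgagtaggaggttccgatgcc
Fmnl2: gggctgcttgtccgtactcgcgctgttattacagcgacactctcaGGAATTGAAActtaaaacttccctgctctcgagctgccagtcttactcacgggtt

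The first line is from the second intron of Got1, the cytosolic aspartate aminotransferase, at chr19:43512067-43512166 on the minus strand. The line for Pik3cb, a catalytic subunit of phosphoinositide 3-kinase, is chr9:99112250-99112349 on the minus strand. That for Nrip1, a corepressor of nuclear receptors, is chr16:76337032-76337131 on the plus strand. Clip1 encodes a protein of growing microtubule ends, and its line is chr5:123670568-123670667 on the plus strand. Cmklr1, the receptor for chemerin, has its line at chr5:113636304-113636403 on the plus strand. Mtss1, a membrane-curving actin regulator, has chr15:59037805-59037904 on the plus strand. Sipa1l1 encodes a GTPase-activating protein for Rap, and its line is chr12:82355606-82355705 on the plus strand. The last, from Fmnl2, a formin that elongates actin filaments, is chr2:52875957-52876056 on the plus strand. The elements differ in their 2 free bases, and the 4 lines with T as the second free base hold the form GGAANTGAAA. In Pik3cb and Clip1 the element lies within 10 bases of the edge of the region, so part of the printed run is outside it.

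2 whole regions show the CpGs of the reference that lie in a region. They were chosen after their values were seen, as the regions of at most 300 bases with the largest area score with and without the element. Each holds more CpGs than the median region, which has 4. Both are on the plus strand, with each CpG in capitals.
Tpcn1: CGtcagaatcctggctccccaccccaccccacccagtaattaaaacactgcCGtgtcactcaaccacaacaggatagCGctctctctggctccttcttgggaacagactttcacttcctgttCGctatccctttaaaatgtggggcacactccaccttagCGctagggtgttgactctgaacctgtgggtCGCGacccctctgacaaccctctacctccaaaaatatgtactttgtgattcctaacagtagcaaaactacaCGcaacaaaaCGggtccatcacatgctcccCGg
Fbf1: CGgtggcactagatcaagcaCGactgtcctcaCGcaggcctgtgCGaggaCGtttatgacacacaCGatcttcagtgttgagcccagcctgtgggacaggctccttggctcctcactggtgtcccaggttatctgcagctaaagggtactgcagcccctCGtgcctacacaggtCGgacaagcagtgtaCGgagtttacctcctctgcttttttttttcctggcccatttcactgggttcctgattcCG

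The Tpcn1 region, chr5:120577111-120577404, lies in the gene of an endolysosomal cation channel. Its 294 bases hold 10 CpGs and, at bases 109 to 118 on the minus strand, a composite element. In the authors' deposited table its difference was -0.435 over 21 cytosines, and its site differences ran from -0.461 to -0.376. The authors count the cytosines of both strands, so a CpG can count as 2. Here and in the Fbf1 region the count exceeds what 10 CpGs can give. Some counted cytosines thus lie off a CpG of the reference. The Fbf1 region, chr11:116143865-116144113, lies in the gene of a protein at the base of cilia, and its 249 bases hold 10 CpGs and no element. The authors' deposited table gives it a difference of -0.442, and the 24 site differences ran only from -0.445 to -0.418. Sites along the Fbf1 region thus had nearly equal values in the deposited table, which was not so in every region.

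A methylation level is a fraction from 0 to 1, and a difference is the level of the first minus that of the second group. In the authors' deposited table the differences of the 795 regions had a median of -0.417, with quartiles of -0.461 and -0.372. They ran from -0.686 to -0.147. The difference was beyond -0.5 in 98 regions and within -0.3 in 19. The sign of these values chose the regions, and none of them was tested. The higher intronic regions had a deposited median difference of similar size, 0.398.

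**Figure D1:**
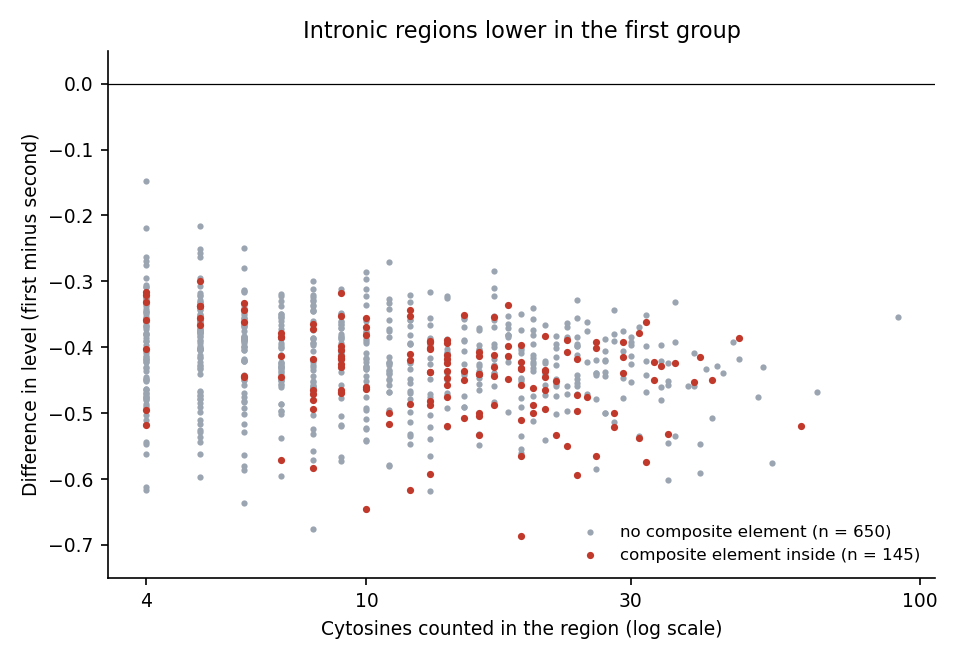
Difference in methylation level (first minus second group) of each of the 795 intronic regions by the number of cytosines counted in it (log scale), from the authors' deposited table. Each point is a region, the 145 with a composite element are red, all lie under 0 by choice, and the 1 point at -0.147 is the region in Cdk17.

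The plot of differences shows 1 cloud, with the regions that hold the element spread through it. In the 145 regions with an element, the median difference in the authors' deposited table was -0.433, and in the 650 without it was -0.412. Those with an element were also longer (median 314 against 192 bp) and held more counted cytosines (median 14 against 9). Whether the element goes with the difference apart from the number of cytosines was not tested. The 242 regions of 4 to 6 cytosines had a deposited median of -0.385, from -0.636 to -0.147, and the 194 regions of 18 to 91 cytosines had -0.433, from -0.686 to -0.328. The spread was thus wider where fewer cytosines stood behind a value. At the edge of the rule, the region with the smallest difference lay in Cdk17, a kinase gene, at chr10:93170997-93171261. Its 4 cytosines went both ways, where the authors' deposited table lists site differences from -0.660 to 0.366. Across the line, the intronic region with the smallest positive deposited difference, 0.105, lay in Adarb2 at chr13:8530516-8531205. The lower region nearest to a transcript start was 1008 bp away, in Clec2i (chr6:128890021-128890211, deposited difference -0.476). The nearest one lost to the limit on distance was 999 bp from a start, in Spint1 (chr2:119238409-119238696, deposited difference -0.394).

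The regions were short, and each held few CpGs. The median length was 216 bp, from 51 to 1944 bp, with a median of 10 cytosines counted by the authors and 4 CpGs in the reference sequence. The higher intronic regions had a median of 3 CpGs, and all intronic windows of 250 bp in the genome held a mean of 2.07. The mean is an unlike measure, since regions vary in length and each deposited one held at least 4 counted cytosines. In 260 regions (32.7%) the reference held fewer than 3 CpGs, and in 8 it held none. The median GC content was 49.4%, against 47.5% in the higher intronic regions, whose median length was 179 bp. Repeats marked in the reference covered more than 50% of the bases in 57 regions (7.17%) and in 76 (7.93%) of the higher intronic regions.

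The authors' deposited table of sites shows the same comparison at single cytosines. It listed 10282 sites inside the 795 regions. Of these, 5139 (50.0%) had a deposited false discovery rate (FDR) under 0.05, against 18.7% of all listed sites. The list held 269406 sites, fewer than the 3565315 intronic windows of 250 bp, which held a mean of 2.07 CpGs. It was thus a subset of the cytosines in the genome, and how it was drawn is unknown. The 18.7% is a share of that list, and the share among all measured cytosines cannot be seen. At least 1 site with an FDR under 0.05 lay in 636 regions (80.0%), close to the 77.9% of all deposited regions. In 159 regions no site was under that FDR, and in 57 every listed site was. The 159 were shorter, with a median of 105 bp against 259.5 bp for the 636, and their median difference in the authors' deposited table was -0.359 against -0.430. Only 3 of the 10282 sites were higher in the first group. The regions and sites come from 1 comparison, so these counts describe them and add no evidence. The median standard error that the authors deposited for a site difference, taken per region and then over regions, was 0.103. On the reference, 8609 sites (83.7%) were the C or G of a CpG.

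The composite element was more frequent in the lower than in the higher intronic regions. It occurred in 145 of 795 lower regions (18.2%; exact Clopper-Pearson 95% interval 15.6 to 21.1) and in 22 of 958 higher regions (2.30%; 1.44 to 3.46). The odds ratio was 9.49, with a 95% interval from 5.99 to 15.03 (two-sided Fisher's exact test, p adjusted over 16 motif comparisons 2.45e-30). In the gene-near intergenic regions that were also lower in the first group, 57 of 349 (16.3%; 12.6 to 20.6) held it. Against these, the odds ratio was 1.14 with an interval from 0.817 to 1.60 (Fisher's exact test, adjusted p = 0.720), so no difference was shown between intronic and intergenic lower regions. Regions are not replicates of a condition, and that this element marks regions lower in the first group was known from earlier results of these data. The tests therefore describe these regions.

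Longer regions had more room for a match, so a fixed window of 250 bp around each midpoint was searched as well. The element lay in 159 lower intronic windows (20.0%; 17.3 to 23.0) and in 17 higher ones (1.77%). Of all 3565315 intronic windows of the same length in the genome, 2.61% held it, and of the 1875270 windows with at least 2 CpGs, 2.41% did. By length of the lower regions, from the shortest to the longest of 4 groups of similar size, the share with an element inside was 4.52%, 13.9%, 24.5% and 30.2%. In the fixed window the same groups had 18.6%, 19.4%, 23.0% and 19.1%. The short regions thus held fewer elements inside their borders but not around their midpoints. By size of the deposited difference, from smallest to largest, 4 such groups had 15.1%, 20.1%, 20.7% and 24.1% in the fixed window, with overlapping intervals.

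**Figure D2:**
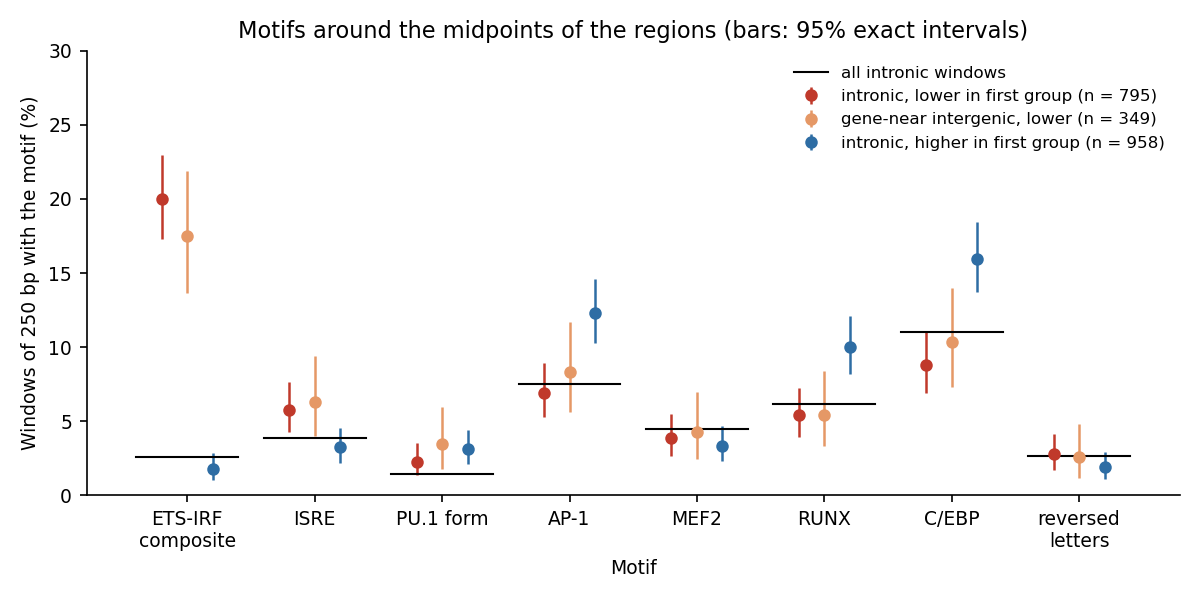
Share of windows of 250 bp around region midpoints with each motif (percent), for the lower intronic regions (n = 795), the gene-near intergenic lower regions (n = 349) and the higher intronic regions (n = 958). Points are shares with exact 95% intervals, black lines are all intronic windows of the genome, and the composite element stands at 20.0% in the lower intronic regions against a line at 2.61%.

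7 other letter patterns were compared in the same family of tests, all on both strands inside the regions. The interferon-stimulated response element, GAAANNGAAA, was in 6.04% of lower and 3.03% of higher intronic regions (odds ratio 2.06, Fisher's exact test, adjusted p = 0.0127). It shares its IRF core with the composite element, but no match of one is a match of the other. With 1 region per host gene this difference had an odds ratio of 1.84 and an adjusted p of 0.0766 by the same Fisher's exact test, and without repeat-masked bases 3.63 and 0.000392. The site of AP-1, TGANTCA, went the other way, with 6.42% against 12.7% (odds ratio 0.470, Fisher's exact test, adjusted p = 6.84e-05). So did that of the RUNX factors, TGTGGTT, with 4.78% against 8.66% (odds ratio 0.529, Fisher's exact test, adjusted p = 0.00902). The pattern of C/EBP factors, TTGCNNAA, was in 8.93% against 13.3% (odds ratio 0.642, Fisher's exact test, adjusted p = 0.0159). For these last 3 motifs the fixed windows of the lower regions, with 6.92%, 5.41% and 8.81%, lay near or under the shares in all intronic windows, 7.49%, 6.14% and 11.0%. The windows of the higher regions had 12.3%, 10.02% and 16.0%.

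A form of the ETS site favoured by PU.1, GAGGAAGT, which can overlap the composite element, was in 1.38% of lower and 2.51% of higher regions (odds ratio 0.546, 95% interval 0.266 to 1.12, adjusted p = 0.279 by Fisher's exact test). The MEF2 pattern, CTANNNNTAG, was in 3.40% and 3.44% (odds ratio 0.985, 0.587 to 1.65, Fisher's exact test, adjusted p = 1). The letters of the composite element in reverse order, AAAGNNAAGG, kept its composition and were in 3.40% and 2.09% (odds ratio 1.65, 0.918 to 2.96, Fisher's exact test, adjusted p = 0.274). Without repeat-masked bases these reversed letters passed the test, with an odds ratio of 2.75 (Fisher's exact test, adjusted p = 0.0441). Against the gene-near intergenic lower regions, none of the 8 patterns passed the test, with adjusted p from 0.630 to 1. A match is a run of letters and not a bound site.

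The 152 elements in the 145 regions were not all alike. The second of the 2 free bases was T in 92 (60.5%), which is the form GGAANTGAAA, and in 38 of 62 elements (61.3%) of the gene-near intergenic lower regions. It was T in 2 of 23 elements in the higher intronic regions. Among intronic windows of the genome that held an element, 24.8% held that form. The stricter form was in 89 lower regions (11.2%) and 2 higher ones (0.209%), with an odds ratio of 60.3 that rests on those 2. It was in 38 gene-near intergenic lower regions (10.9%), against which the odds ratio was 1.03. In windows of 250 bp it was in 12.2% of lower and 0.313% of higher intronic regions, against 0.649% of all intronic windows. The commonest pairs of free bases were CT in 31 elements, AT in 27, GT in 26 and CA in 19. The base after the element was C in 70 (46.1%) and G in 51, as the lines for Got1, Pik3cb and Mtss1 show with C. The base before it was A in 76 and G in 50. A CpG within the 10 bases occurred in 8 elements. Of the 152, 69 (45.4%) pointed the same way as the host gene.

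Around the midpoints, elements of the lower regions were densest in the middle bins. Inside the borders, where the length of a region limits the distance, 70 of the 152 (46.1%) were within 50 bp of the midpoint, and so were 11 of 23 (47.8%) in the higher regions. Counted in bins of 100 bp whatever the borders, there were 9.69 elements per 100 regions in the bin just before the midpoint and 8.18 in the bin just after. The farthest bin before the midpoint, at 900 to 1000 bp, had 0.755. The higher intronic regions had 0.835 and 0.939 in the middle bins. Their largest bin was at 200 to 300 bp, with 3.03 per 100 regions, where the reversed letters also had 2.40.

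**Figure D3:**
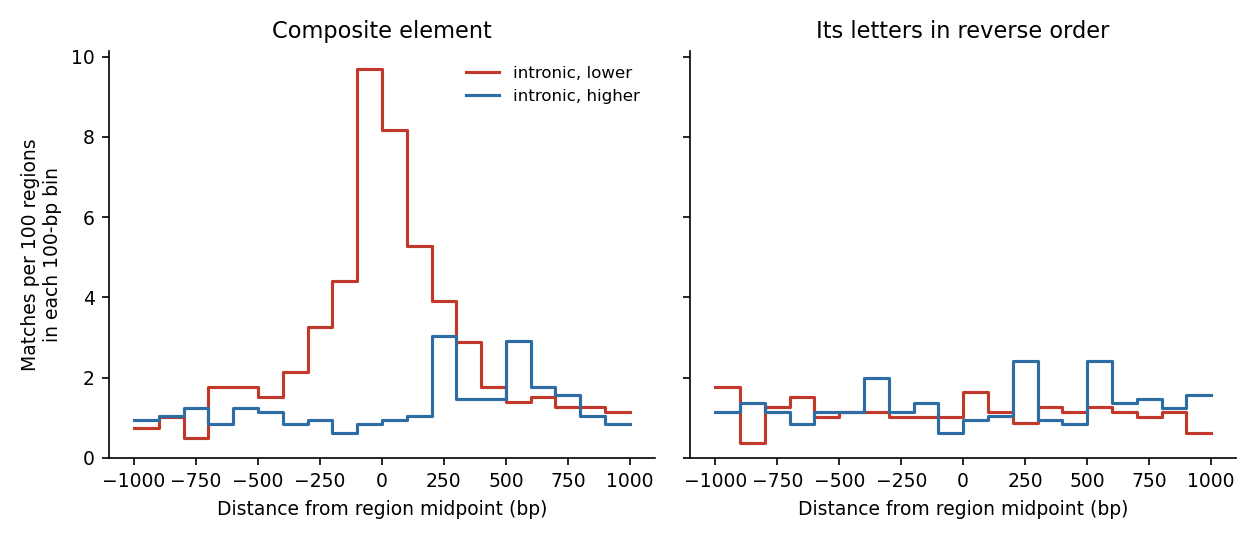
Matches per 100 regions in bins of 100 bp by distance from the region midpoint (bp), for the composite element (left) and its letters in reverse order (right), in the lower (red) and higher (blue) intronic regions. The red line for the element peaks at 9.69 and 8.18 beside the midpoint, and the reversed letters have 1.01 and 1.64 in the same bins.

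In the regions with the largest area scores, neighbouring sites often had equal values in the deposited table. Whether a dip as narrow as the element could appear in such values was not tested. In the authors' deposited table the median difference was -0.439 over 615 sites within 50 bp of an element and -0.455 over 558 sites at 50 to 100 bp. It was -0.438 at 100 to 200 bp and -0.419 beyond 200 bp. The most negative listed site of each of the 145 regions was a median of 78.5 bp from the nearest element. Sites of a region are not independent, and these medians are a description.

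The regions were placed in their genes much as the higher ones were. Of the 795 regions, 241 of the 725 that lay in an intron of the longest coding transcript were in its first intron (33.2%), against 286 of 883 (32.4%) of the higher regions. The other 70 lay outside the introns of that transcript. The median distance to the nearest coding start was 16598 bp, 179 regions were within 5000 bp of one, and 186 (23.4%) were farther than 50000 bp, against 197 (20.6%) of the higher regions. By distance to the start, from nearest to farthest, 4 such groups held the element in 16.1%, 23.1%, 24.2% and 16.6% of fixed windows, with overlapping intervals. On the X chromosome there were 9 regions.

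Long genes hosted more regions. Of 20504 protein-coding genes with an intron, 592 (2.89%) hosted a region lower in the first group. The 1 other host has no protein-coding transcript with an intron in the annotation. The share was 0.218% of genes under 10000 bp, 1.64% from 10000 to 50000 bp, 5.16% from 50000 to 100000 bp and 12.1% of longer genes. The median length was 101702 bp for the hosts and 19503.5 bp for all genes with an intron. Of the 593 hosts, 87 also hosted a region higher in the first group, which is 14.7% of these hosts and 13.004% of the 669 hosts of higher regions. In the same groups of gene length, from shortest to longest, 0.109%, 1.92%, 6.83% and 12.7% of genes hosted a higher region. Whether the overlap goes beyond gene length was not tested. A region in an intron need not act on its host gene, and no expression was measured in these files.

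The 15 regions with the largest area scores lay in genes of varied function, and 3 of them, in Got1, Pik3cb and Tcof1, held the element. The largest score was in the first intron of Bin1, which encodes a membrane-curving protein of the amphiphysin family. This region, chr18:32378695-32380638, is the longest of the 795, at 1944 bp. In the authors' deposited table its difference was -0.575, its sites ran from -0.658 to -0.336, and 45 of 54 had an FDR under 0.05. A region of Nfix, a nuclear factor I transcription factor, at chr8:84785448-84786488, had the most cytosines of the 795, with 91. Its deposited difference was smaller, -0.355, and 17 of its 91 sites passed. An area score is a sum over sites, so the Nfix region ranked high by its number of cytosines. The reverse held in an intron of Ryr1, the calcium release channel of skeletal muscle, at chr7:29043060-29043504. All 40 sites of the Ryr1 region had an FDR under 0.05 in the authors' deposited table, and they ran from -0.655 to -0.489.

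Enzymes and a kinase scaffold were among the other hosts. Got1 (chr19:43511515-43512671) had a deposited difference of -0.520, with 58 of 61 sites under the FDR. Rptor, the scaffold subunit of the mTORC1 kinase complex, had -0.475 in the authors' deposited table at chr11:119730171-119731876. Its sites spread the widest of the 15, from -0.693 to -0.374, apart from those of Bin1. Egln1, a prolyl hydroxylase that marks hypoxia-inducible factors for decay, had a deposited difference of -0.534 at chr8:124930093-124930675, with 29 of 36 sites. Auh, an enzyme of leucine breakdown that also binds RNA, had a deposited difference of -0.418 at chr13:52849604-52850290, with 27 of 47 sites.

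A further 7 of the 15 were of varied kinds. Pik3cb (chr9:99112285-99113006) had a deposited difference of -0.575, and 31 of 32 sites passed. Sh3pxd2a, a scaffold of podosomes, had -0.601 in the authors' deposited table at chr19:47399362-47399839, with 35 of 35 sites. The Sh3pxd2a difference was the largest of the 15. Tiam1, an activator of the small GTPase Rac, had a deposited difference of -0.430 at chr16:89909299-89909948, with 42 of 52 sites. Pou2f2, an octamer-binding transcription factor of lymphoid and myeloid cells, had -0.468 in the authors' deposited table at chr7:25130747-25131793, with 52 of 65 sites. Atp6v0a2, a subunit of the proton pump of acidic organelles, had a deposited difference of -0.546 at chr5:124631202-124632102, with 40 of 40 sites. Gcnt2, a glycosyltransferase that branches sugar chains, had -0.545 in the authors' deposited table at chr13:40939918-40940545, with 34 of 35 sites. Wwox, an oxidoreductase with WW domains, had a deposited difference of -0.508 at chr8:114684047-114684941, with 36 of 42 sites.

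**Figure D4:**
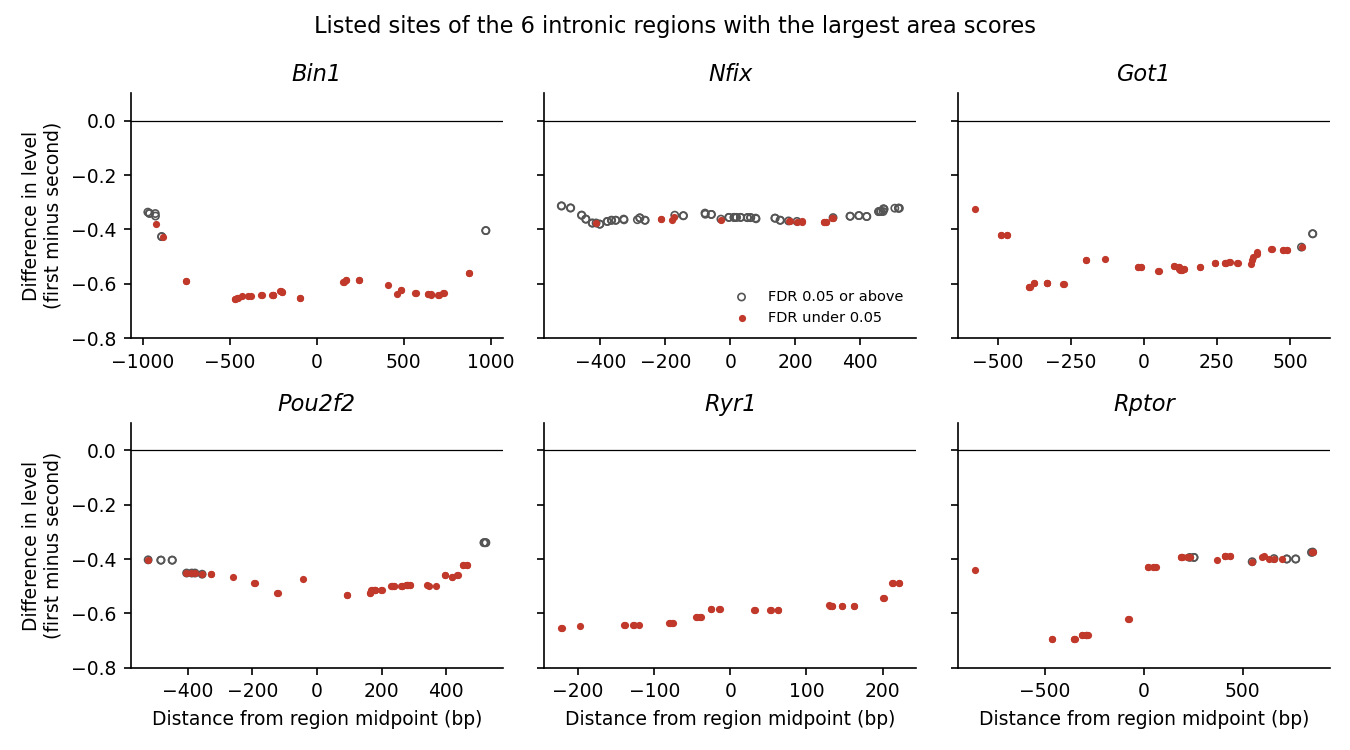
Difference in methylation level (first minus second group) at each listed site, by distance from the region midpoint (bp), in the 6 regions with the largest area scores, from the authors' deposited table. Filled red points have an FDR under 0.05 and open points do not: every site is under 0, Ryr1 has 40 filled of 40, and Nfix has 17 filled of 91 in a nearly flat line.

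The plot of sites shows 3 shapes. In Bin1, Got1 and Pou2f2 the difference shrank towards both edges, in Nfix it was nearly flat, and in Rptor and Ryr1 it was larger on 1 side. Neighbouring sites often had equal values, with steps between them, such as that from -0.619 to -0.430 in Rptor.

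Tcof1, which encodes treacle, a protein of ribosome biogenesis, had 2 of the 10 largest regions with an element. The one in its second intron, chr18:60843779-60844246, had a deposited difference of -0.450 with 32 of 42 sites under the FDR. The one in its intron 13, chr18:60830711-60831332, held 2 elements and had a deposited difference of -0.532. The largest difference of all 795 regions, -0.686, was in an intron of Sipa1l1 at chr12:82355601-82355991. Its 19 sites in the authors' deposited table ran from -0.721 to -0.657, and all 19 passed. Fmnl2 followed among the 10, with a deposited difference of -0.594 at chr2:52875876-52876349 and 24 of 24 sites. Nrip1 (chr16:76337029-76337557) had a deposited difference of -0.538, with 30 of 31 sites. Mtss1 (chr15:59037583-59038394) had a deposited difference of -0.452, with 29 of 39 sites. Cmklr1 (chr5:113635928-113636598) had a deposited difference of -0.414, with 25 of 40. The smallest of the 10, -0.386 in the authors' deposited table, was that of Clip1 at chr5:123670607-123671345, with 16 of 47 sites. Within this group of 10, the share of sites that passed was thus lowest where the difference was smallest.

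Some genes hosted several regions. Of the 593 hosts of the 795 regions, 463 had a single region, 130 had 2 or more, and 16 had 4 or more. The 958 higher intronic regions lay in 669 hosts, so several regions per host were not particular to the lower ones. Of 775 pairs of neighbouring regions on a chromosome, 110 were within 10000 bp of each other. The largest number, 11, lay in Frmd4a, which encodes a FERM-domain scaffold of cell polarity. They spread over 100679 bp of its 596327 bp, in introns 1, 2, 4 and 5, and their deposited differences ran from -0.585 to -0.331. 10 of the 11 had a site with an FDR under 0.05 in the authors' deposited table, and 1 held an element. The one with the largest difference was chr2:4456791-4457313, where 24 of 26 sites passed. Frmd4a also hosted 1 region that was higher in the first group.

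Bin1 had 8 regions over 33031 bp, 6 in its first intron and 2 in its second. All 8 held a site with an FDR under 0.05, and 1, chr18:32393160-32393623, held an element, with a deposited difference of -0.505. The differences of the 8 in the authors' deposited table ran from -0.575 to -0.311. No region higher in the first group lay in Bin1.

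**Figure D5:**
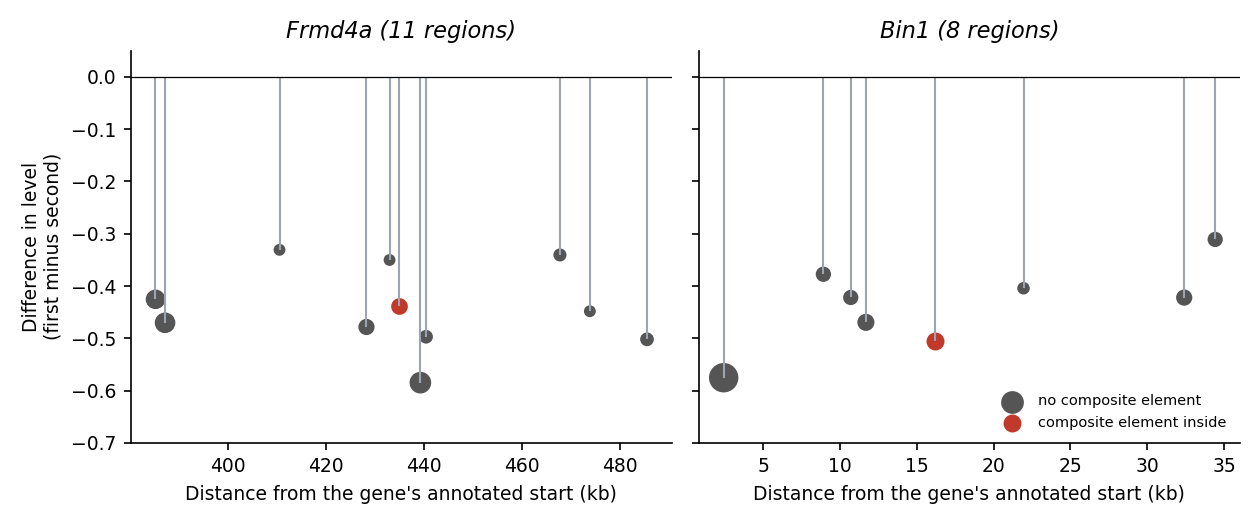
Difference in methylation level (first minus second group) of each lower intronic region of Frmd4a (11 regions) and Bin1 (8 regions) by distance from the gene's annotated start (kb), from the authors' deposited table. Point area grows with the number of cytosines, red marks a composite element, and the differences span -0.585 to -0.331 in Frmd4a and -0.575 to -0.311 in Bin1.

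5 regions each lay in Sipa1l1 and in Ctif, which encodes a factor of cap-dependent translation. Those of Sipa1l1 had deposited differences from -0.686 to -0.394 over 166033 bp. Those of Ctif were narrower, from -0.401 to -0.362 over 38480 bp. The other 12 genes had 4 regions each. Numb, an inhibitor of Notch signalling, held its 4 within 5717 bp of its first intron, with deposited differences from -0.636 to -0.384. Plxdc2, a membrane protein gene, held 4 within 4683 bp, with deposited differences from -0.508 to -0.430. In Pou2f2 the 4 lay within 9787 bp, and 2 of them had a site under the FDR.

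4 of these hosts encode transcription factors. Etv6, an ETS repressor, had deposited differences from -0.481 to -0.395 and also hosted 2 higher regions. Bach2, a repressor of the basic leucine zipper family, had -0.477 to -0.380 in the authors' deposited table. Foxn3, a forkhead factor, had -0.463 to -0.356 there, and Pou2f2 had -0.468 to -0.348. None of their 16 regions held an element, against 18.2% of all 795 regions, and this was not tested. The lack was not particular to transcription factors. Among the hosts of 4 regions each, only Tbxas1, the thromboxane synthase of macrophages and platelets, had any element, in 2 of 4 regions. The deposited differences of Tbxas1 ran from -0.486 to -0.404. Pag1, the membrane adaptor of the kinase Csk, had deposited differences from -0.442 to -0.269. P3h2, a collagen prolyl hydroxylase, had -0.554 to -0.399, and Man1c1, a mannosidase of the Golgi, had -0.474 to -0.353, both in the authors' deposited table. Dip2b had -0.449 to -0.366 and Tiam1 -0.440 to -0.311 in the authors' deposited table.

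Of 272 genes with an intron on 13 lists of microglial, immune and other brain cell genes, 15 (5.51%) hosted a region lower in the first group, against 2.89% of all genes with an intron. Among 27 myeloid transcription factors, 7 (25.9%) hosted 13 regions, and 7 hosted 14 regions higher in the first group. The median length of these factors was 34124 bp. The 4 regions of Etv6 included the 2 with the most cytosines of the list, 39 each. In the authors' deposited table its region chr6:134230065-134230615 had a difference of -0.459, and 35 of 39 sites passed. Runx1, which specifies blood cells, had -0.459 in the authors' deposited table at chr16:92674972-92675360, with 19 of 24 sites. Runx3, its relative in lymphoid and myeloid cells, had a deposited difference of -0.364 at chr4:135148820-135149263, with 6 of 18 sites. Irf2, an interferon regulatory factor that represses transcription, had -0.404 in the authors' deposited table at chr8:46746088-46746338, and 1 of 16 sites passed. Nfkb1, a subunit of NF-kappaB, had a deposited difference of -0.432 at chr3:135637755-135637879, with 2 of 9 sites. In Irf2 and Nfkb1, few sites thus stood under the FDR.

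Runx2, better known for bone, had 3 regions. Those at chr17:44737629-44737687 and chr17:44737821-44737907 had deposited differences of -0.280 and -0.331, and no site of either passed the FDR. The remaining one, chr17:44571120-44571198, had a deposited difference of -0.374 with 1 of 5 sites. Runx2 also hosted 5 regions higher in the first group, so its introns held differences of both signs.

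Among 18 genes of microglial identity, 3 (16.7%) hosted 6 regions, against 2.89% of all genes with an intron. In the same list, 2 genes hosted 2 regions higher in the first group. The median gene length over the list was 16354 bp. Sall1, a zinc finger factor that maintains microglial identity, had 3 regions within 2070 bp of its second intron. Their deposited differences were -0.388, -0.347 and -0.501 along the chromosome. Each of the Sall1 regions had at least 1 site with an FDR under 0.05, and none held an element. Mef2c, a transcription factor of microglia and neurons that is on both lists, had 2 regions. The one at chr13:83604847-83605271 held an element, with a deposited difference of -0.469 and 1 of 9 sites under the FDR. The other, chr13:83591869-83591937, had a deposited difference of -0.389, with 3 of 6 sites. Sparc, a matrix-binding secreted protein, had a deposited difference of -0.327 at chr11:55417007-55417084, with 1 of 3 listed sites.

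Among 30 myeloid adaptors and kinases, 3 (10%) hosted 1 region each, against the 2.89% of all genes with an intron, and 6 hosted 8 regions higher in the first group. The median gene length of this list was 87228.5 bp, against 19503.5 bp for all genes with an intron. Blnk, an adaptor of the kinase Syk, had a deposited difference of -0.403 at chr19:40992594-40992978, with 5 of 16 sites under the FDR. Dock10 had a deposited difference of -0.417 at chr1:80700435-80700485, with 2 of 10 sites. Elmo1 had a deposited difference of -0.354 at chr13:20233900-20233958, with 0 of 5 sites. Of 34 chemokine and cytokine genes, Csf2rb, the shared beta chain of the receptor for granulocyte-macrophage colony-stimulating factor, was the only host (2.94%), with a deposited difference of -0.343 and no site under the FDR. Of this list, 3 genes hosted 6 regions higher in the first group. Tfeb, the factor that drives lysosomal genes, was the only host of 28 lysosome genes (3.57%), with a deposited difference of -0.299 and no such site. Both shares were near the 2.89% of all genes with an intron.

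4 immune lists had no host: 16 genes of disease-associated microglia, 18 of the interferon response, 17 of antigen presentation, and 32 pattern recognition and Fc receptors. At a share of 2.89% over all genes with an intron, 0 hosts in lists of this size is near the background. In each of the first 3 of these lists, 1 gene hosted 1 region higher in the first group. The median gene lengths of these lists ran from 10808 to 20266.5 bp. The lists of other cells had 1 host in all. It was Slc1a3, the glutamate transporter of astrocytes, at chr15:8682651-8682940, with an element inside and a deposited difference of -0.441. In this region 9 of 16 sites had an FDR under 0.05. Slc1a3 was 1 of 11 astrocyte genes (9.09%), against 2.89% of all genes with an intron. No gene of the 15 neuronal, 11 oligodendrocyte or 19 other leukocyte genes hosted a region lower in the first group. Here too, 0 hosts is near the background share of 2.89%. Higher in the first group were 1 region in 1 neuronal gene and 4 regions in 2 other leukocyte genes.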

How the data were processed

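The 4 samples were grouped by the genotype in their labels, 2 per group. The deposited tables hold only the authors' comparison of numbered groups, and the 4 columns with a level per numbered group were not used. Per the submitters' processing notes, Trim Galore, Bismark and the mm10 build were used. The test, its settings and any filter on coverage were not given in the sources used here. Per the file headers, the authors deposited for each region its length, its number of cytosines, a difference in methylation level and an area score. For each site they deposited a difference with its standard error, a p-value and an FDR. Depth is not in the files, so differences have no interval here, and 2 against 2 samples would allow no exact permutation p under 0.333.

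Introns, exons and starts were those of protein-coding transcripts in GENCODE release M21. For the 20 regions in more than 1 gene, the shortest was named. Of the listed sites in deposited regions, 83.7% fell on a CpG of GRCm38. Sequences came from the RefSeq GRCm38 assembly, with coordinates counted from 1. Motifs were searched on both strands, and shares were compared with two-sided Fisher's exact tests and Benjamini-Hochberg adjustment over 16 comparisons, which take regions as independent. Intervals cover counting error only. The searches were tested on simulated data. Genes were named by rule: the 15 largest area scores, the 10 largest with an element, hosts of 4 or more regions, list genes, and the edges of the rule. The regions, lists and motifs were chosen with earlier results of these data known. Python 3.11.15, pandas 2.3.3, numpy 2.4.6 and scipy 1.17.1 were used.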

Additional observations from a re-analysis of the deposited data

How the results depend on the processing

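Of 106 alternative values, 85 kept their direction and their side of the threshold or, where there was no test, their size. The odds ratio of the composite element against the higher intronic regions ran from 8.06 to 60.3 in the 14 alternatives, with 60.3 for the stricter form and at most 13.8 for the others. Its share in the lower regions was 25.2% for regions of 10 or more cytosines, 22.8% for those of 3 or more reference CpGs, 22.3% with 1 region per host gene, 30.4% in windows of 500 bp, 14.6% without repeat-masked bases and 11.2% for the stricter form. The odds ratio against gene-near intergenic lower regions fell under 1 with at least 10 cytosines (0.935) and with at least 3 CpGs (0.992), and was 1.47 with 1 region per host gene (Fisher's exact test, adjusted p = 0.0766). With at least 10 cytosines, 404 regions were left. The median difference in the authors' deposited table was -0.430 where 10 or more cytosines or a site under the FDR were required, -0.427 with at least 3 CpGs and -0.422 with 1 region per gene. Starts and exons of all transcripts of coding genes left 742 regions. The share in a first intron was 43.6% when any coding transcript counted. Against the higher regions, the odds ratio for MEF2 turned above 1 with 1 region per gene (1.24), in windows of 250 bp (1.17) and without masked bases (1.04), and that for the interferon-stimulated response element was 1.84 with 1 region per gene and 3.63 without masked bases. The reversed letters passed without masked bases (odds ratio 2.75, Fisher's exact test, adjusted p = 0.0441). Against the gene-near lower regions, MEF2 turned to 1.24 with 1 region per gene and the response element to 1.03 without masked bases. The cause of these shifts was not tested. The alternatives of all transcripts, of 1 region per gene and those for the other motifs were chosen after seeing the data. No paired analysis was possible because the deposited tables hold no value per sample, and for the same reason no replicate could be left out and no coverage minimum set.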
